A study of Homo sapiens with 12 samples.

Results

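Hepatic uptake and efflux transporters were taken as the genes whose symbol starts with ABCA, ABCB, ABCC, ABCD, ABCG, SLCO, SLC10A or SLC22A. The rule found 83 of the 19988 protein-coding genes in the deposited table, 41 in the ABC families and 42 in the SLC families, and no measured value entered it. Poly-A RNA was sequenced from subcutaneous tumours that cells of the established human liver cancer line Huh-7 had formed in BALB/c nude mice, which lack a functional thymus and so keep few mature T cells. Each of 4 groups held 3 libraries, from mice obtained at 6 weeks of age, whose tumours averaged 150 to 200 mm3 when treatment began. The CS2164_IR group received both treatments, the IR group radiation of 2 Gy per day in 10 fractions, the CS2164 group the kinase inhibitor CS2164 at 10 mg/kg per day by gavage, and the Control group neither. CS2164, also known as chiauranib, inhibits Aurora kinase B, the VEGF receptors and other receptor tyrosine kinases. Per the labels, pentobarbital anaesthesia was given to all mice before radiation and co-solvent stood in for the inhibitor. The cell line label reads Huh-7 throughout, whereas the titles name Huh-8 in the CS2164 group, Huh-9 in the IR group and Huh-10 in the CS2164_IR group. The data were not used to decide between them. The labels do not say that libraries of a group came from separate animals, so the p-values below measure the spread between these libraries, which may be partly technical.

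Hepatocytes take bile acids, hormones and drugs from blood through solute carriers of the SLC10A, SLCO and SLC22A families, and pump them or their conjugates into bile or back into blood with ATP-driven ABC transporters. SLC10A1 (NTCP) carries conjugated bile acids into the cell, and SLCO1B1 and SLCO1B3 (OATP1B1 and OATP1B3) carry bilirubin, statins and other organic anions. At the canalicular face, ABCB11 (BSEP) exports bile acids, ABCB4 (MDR3) phosphatidylcholine, ABCG5 with ABCG8 cholesterol, and ABCC2 (MRP2) conjugated bilirubin. In liver cancer several uptake carriers are commonly low, and ABCB1 (P-glycoprotein), ABCC1 (MRP1) and ABCG2 (BCRP) are known for carrying anticancer drugs out of cells.

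Library totals ran from 12886607 to 16890346 counts, and the 83 transporters made up 0.241% to 0.275% of counts in CS2164_IR, 0.233% to 0.265% in IR, 0.272% to 0.283% in CS2164 and 0.194% to 0.258% in Control libraries. All 11 hepatocyte and liver cancer markers had reads, at 4.58% to 7.52% of counts in the 12 libraries. The lists of other cell types had reads for 5 of 5 cholangiocyte, 4 of 6 endothelial, 8 of 8 fibroblast and pericyte, 5 of 6 macrophage, 4 of 5 lymphoid, 4 of 6 skin, muscle and fat, and 1 of 3 erythroid markers. FLT1, KDR, ADGRE1, MS4A1, ADIPOQ, KRT14, HBA1 and HBA2 were at 0 throughout, while endothelial PECAM1 had 72 to 157 counts, macrophage LYZ 436 to 1256, fibroblast COL1A2 279 to 1023 and fat PLIN1 46 to 171. Each was the highest gene of its list. COL3A1 had 86 to 173 counts, but CD68 and VWF had at most 2 and ACTA2 at most 5. Host cells were from mice, so reads on such genes came from Huh-7 cells or were mouse reads placed on human genes. These 2 sources cannot be told apart here. CS2164 replicate 1 and Control replicate 2 were the least like the other libraries of their groups, with mean Spearman correlations over genes of 0.973 and 0.979, against at least 0.982 for the rest. They are called the 2 distant libraries below. Of the 83 transporters, 61 passed the filter on low counts and were tested. The other 22 had at most 12 reads in any library. They include the renal carriers SLC22A2 and SLC22A6 and the potassium channel regulators ABCC8 and ABCC9. SLC10A2 (ASBT), the ileal bile acid carrier, SLC22A12, the renal urate carrier, and SLCO4A1 had no read in any library, which allows 3 counts per library, or 0.172 to 0.239 CPM. CPM is the count relative to the library's scaled total, is not corrected for length, and is used to compare libraries within a gene.

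Compared per length, in the authors' FPKM, organic anion carriers and conjugate pumps led the tumours, while SLC10A1 and SLCO1B3, typical hepatocyte uptake carriers, averaged 0.200 and 0.215 FPKM. SLC22A9 (OAT7), a liver-specific sulphate conjugate carrier, had the highest mean, 85.8 ± 16.8 FPKM (SD over 12 libraries), with group means of 80.1 in CS2164_IR, 70.3 in IR, 107 in CS2164 and 86.1 in Control. ABCC2 followed at 34.7 ± 4.31 FPKM. ABCC3 (MRP3), which returns conjugates to blood, stood at 24.6 ± 6.04, and the endolysosomal lipid transporter ABCA2 at 22.6 ± 7.45. ABCC6, a liver transporter required for ATP release, stood at 22.2 ± 3.49 FPKM, but it has near-identical pseudogene copies whose reads may have been shared. From ABCC3 to ABCC6 the means differ by less than the spread over libraries, and so do those of the next pair, the cation carrier SLC22A3 (OCT3) at 18.2 ± 3.36 and the prostaglandin carrier SLCO2A1 at 18.0 ± 5.24 FPKM. A middle tier held ABCA1, the cholesterol exporter to apolipoprotein A-I, at 11.5 ± 3.63 FPKM, ABCB1 at 8.57 ± 1.38, SLCO2B1 at 7.53 ± 2.47, SLCO1B1 at 4.09 ± 1.38 and SLC22A7 (OAT2), a carrier of nucleotides and other organic anions, at 4.06 ± 2.33. ABCC4, ABCB4, ABCC1, ABCG8 and ABCG5 lay between 2.11 and 3.46 FPKM. ABCB11 reached only 0.556 ± 0.198 FPKM, ABCG2 0.222 ± 0.102, SLCO1B3 0.215 ± 0.112, SLC10A1 0.200 ± 0.145 and ABCG1 0.0904 ± 0.0641. Thus the main bile salt export pump and the main sodium-dependent uptake carrier ranked 44 and 56 among the 83. Exon bases of SLCO1B3 are shared with a read-through gene on the same strand over 54.5% of its length. Reads there may not have been counted for SLCO1B3, so its level may be understated.

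**Figure D1:**
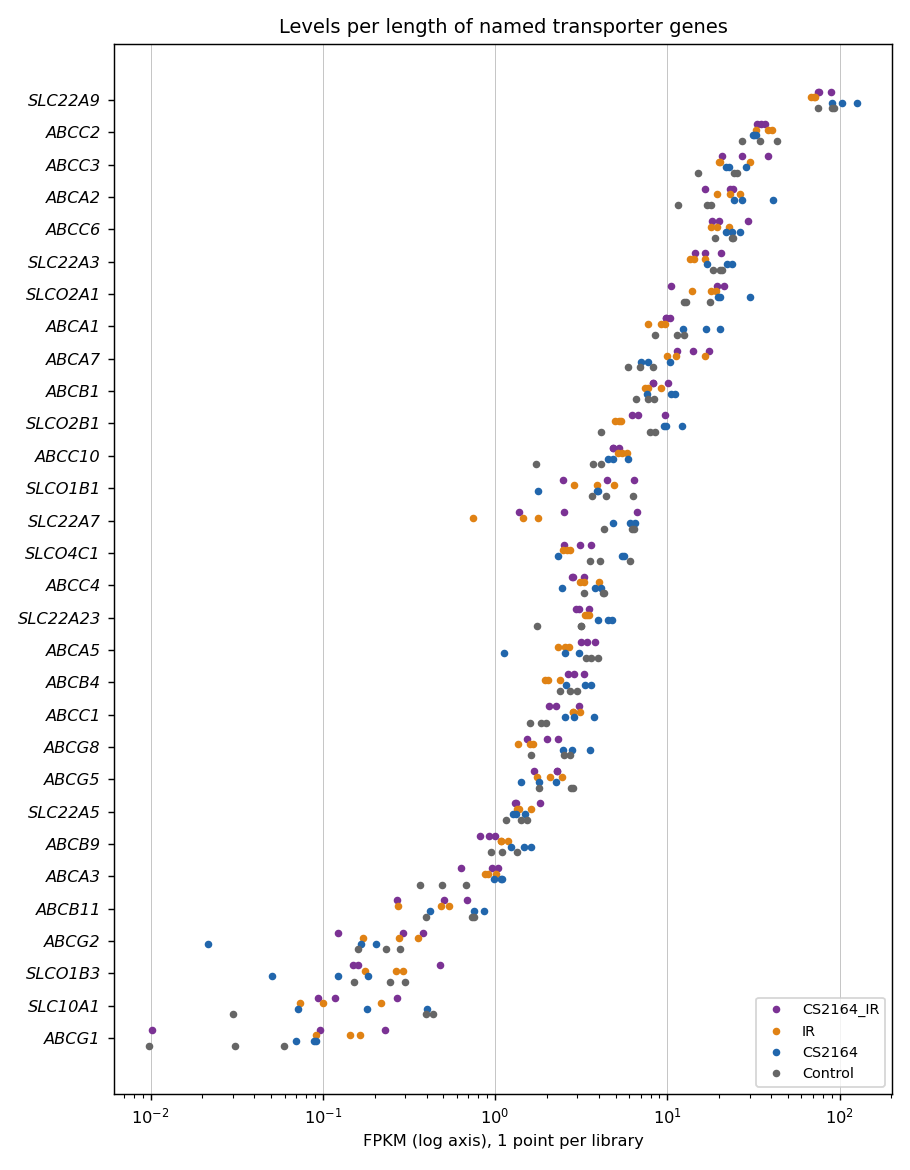
FPKM on a log axis for named transporter genes, 1 point per library, coloured by group and ordered by the mean over 12 libraries. SLC22A9 is at the top with 68.2 to 126 FPKM, and ABCG1, SLC10A1, SLCO1B3 and ABCG2 are the lowest of the genes drawn, each with a mean under 0.3 FPKM.

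The first comparison asks what the inhibitor alone did. With CS2164, 8 of the 61 tested transporters rose and 1 fell at an adjusted p under 0.05, against a background of 19.7% of all 13521 tested genes changed in either direction, 10.4% higher and 9.32% lower. The 9 transporters are a share near that background in total, with the split towards higher. The count was 4 without Control replicate 2, where 4.53% of all tested genes were called, and 4 without both distant libraries, where 7.05% were. Fibroblast and pericyte markers summed to 0.00507% to 0.00798% of counts in CS2164 and 0.00373% to 0.00437% in Control libraries, with COL1A2 at 1023 counts in CS2164 replicate 1, and skin, muscle and fat markers to 0.000470% to 0.000572% in CS2164 and 0.000641% to 0.00107% in Control libraries. COL1A2 had 400 and 439 counts in CS2164 replicates 2 and 3, and 293, 424 and 279 in Control libraries. Pericyte RGS5 went the other way, with 20, 42 and 54 counts in CS2164 and 63, 56 and 59 in Control libraries. The skin, muscle and fat sum was mostly PLIN1. The other marker lists overlapped, and the part of markers in these changes was not tested. The transporters that rose were the lipid transporters ABCA2, ABCA3 and ABCA1, the efflux pumps ABCC1 and ABCC10, the uptake carriers SLCO2A1 and SLCO2B1, and the orphan SLC22A23, while the lysosomal ABCA5 fell. Among the 10 tested multidrug and conjugate pumps 2 rose and none fell, among 5 sterol and phospholipid exporters 1 rose, among 7 organic anion transporting polypeptides 2 rose, and among 4 lysosomal transporters 1 rose and 1 fell. None of the 2 canalicular exporters ABCB11 and ABCB4, the 4 mitochondrial, the 2 peroxisomal, the 4 SLC10A, the 4 organic cation and carnitine or the 6 organic anion SLC22A genes passed. At an unadjusted p under 0.05 there were 18 transporters, against 35% of all genes. All 3 CS2164 libraries lay above the 3 Control libraries for 12 transporters and below them for 6, against 18.6% and 17.8% of all tested genes, 36.4% in either direction.

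Among the transporters that passed, the lipid transporters ABCA3 and ABCA2 had the largest changes with CS2164. ABCA2 (chr9:137007227-137028922, minus strand, GRCh38) had 515, 314 and 285 CPM in CS2164 libraries and 202, 139 and 193 CPM in Control libraries. Every CS2164 library was above every Control library, and replicate 1 of CS2164 was the highest. Its group means were 371 ± 125 CPM in CS2164 and 178 ± 33.95 CPM in Control (SD, n = 3 each), a 2.09-fold difference with a log2 change of 1.06 ± 0.21 (SE) and an adjusted p of 0.00541 by edgeR's quasi-likelihood test with Benjamini-Hochberg adjustment. It was the 1 transporter called in all 22 alternative analyses, with adjusted p between 7.04e-05 and 0.048. ABCA3, which loads phospholipid into the lamellar bodies of lung cells, was at a far lower level, with 9.16, 7.80 and 8.69 CPM in CS2164 and 5.18, 3.02 and 3.79 CPM in Control libraries. The groups did not overlap, and the log2 change was 1.10 ± 0.25 (edgeR adjusted p = 0.00887). Without Control replicate 2 the adjusted p was 0.0528, and without both distant libraries 0.0551, within a range of 0.000524 to 0.0551 over the alternatives. ABCA5, a lysosomal cholesterol transporter, had 16.1, 33.7 and 41.0 CPM in CS2164 and 50.8, 49.9 and 44.2 CPM in Control libraries, with CS2164 replicate 1 far below its mates. Its log2 change was -0.67 ± 0.23 (edgeR adjusted p = 0.0465), and the call was lost when any library other than CS2164 replicate 3 was left out, with adjusted p between 0.0544 and 0.145. Without CS2164 replicate 1 the log2 change was -0.37, and without both distant libraries -0.34 (adjusted p = 0.162).

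ABCA1 moves cholesterol and phospholipid to apolipoprotein A-I and is a textbook target of the oxysterol-sensing liver X receptors. It was the only transporter that passed the test in 2 comparisons, here and with CS2164_IR against CS2164, so its promoter is shown. In RefSeq's GRCh38.p14 the window from 250 bases before to 50 bases after its start is chr9:104928106-104928405 on the minus strand, with 62.7% G and C. Capitals mark, in order, 2 GC boxes (GGGCGG), an E-box (CACGTG), another GC box and a TATA box (TATAAA).
ABCA1 promoter: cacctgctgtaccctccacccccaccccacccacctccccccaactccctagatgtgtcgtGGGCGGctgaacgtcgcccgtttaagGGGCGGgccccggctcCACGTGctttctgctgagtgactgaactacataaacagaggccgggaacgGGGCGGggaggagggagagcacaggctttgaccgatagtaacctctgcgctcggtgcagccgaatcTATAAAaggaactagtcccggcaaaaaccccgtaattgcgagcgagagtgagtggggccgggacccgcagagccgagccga
Searched on both strands, the GC boxes begin at -189, -163 and -97, the E-box at -147 and the TATA box at -31 relative to the start, and none overlaps another. Promoters were found for 57 of the 83 transporters. GGGCGG occurred in 24 of these and in 44.6% of all 27305 promoter windows, CACGTG in 4 and 7.4%, and TATAAA in 11 and 12.0%. A match is a description of the letters and not evidence of binding. ABCA1 had 152, 193 and 233 CPM in CS2164 libraries and 139, 101 and 128 CPM in Control libraries, so that the lowest CS2164 library stood just above the highest Control library. The log2 change was 0.65 ± 0.16 (edgeR adjusted p = 0.0129), with a range of 0.0017 to 0.0727 over the alternatives. Without Control replicate 2 the log2 change was 0.53 and the adjusted p 0.0684. The other sterol exporters did not pass. ABCA7, an ABCA1 relative that exports phospholipid, had a log2 change of 0.31, ABCG8 0.42 ± 0.21, ABCG5 -0.39 ± 0.24, and ABCG1, with at most 0.589 CPM in any CS2164 and 0.355 CPM in any Control library, 1.40 ± 0.83.

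Of the pumps that carry drugs and conjugates out of cells, ABCC1 and ABCC10 rose with CS2164. ABCC1, an exporter of glutathione conjugates, had 35.6, 25.3 and 22.6 CPM in CS2164 and 16.8, 14.7 and 15.9 CPM in Control libraries. The 3 Control libraries lay close together, and each CS2164 library was above them. The log2 change was 0.82 ± 0.19 (edgeR adjusted p = 0.00936), a 1.76-fold difference called with any single library left out, although not without both distant libraries (log2 change 0.55, adjusted p = 0.0554, within 0.000614 to 0.0571 over the alternatives). The call was also lost with the compared groups alone (edgeR adjusted p = 0.0571) and with the replicate block and GC and length correction together (0.0554). ABCC10 (MRP7), which confers taxane resistance when overexpressed, had 51.9, 36.9 and 39.6 CPM in CS2164 and 32.5, 14.6 and 29.8 CPM in Control libraries, with Control replicate 2 well below its mates. Its log2 change was 0.74 ± 0.22 (edgeR adjusted p = 0.0275), and the adjusted p was 0.102 without Control replicate 2, 0.0999 without CS2164 replicate 1 and 0.181 without both distant libraries, within 0.00875 to 0.181 over the alternatives. ABCB1, the P-glycoprotein gene, had 53.1, 72.0 and 68.5 CPM in CS2164 and 52.7, 44.1 and 49.0 CPM in Control libraries. All CS2164 libraries were above the Control libraries, by little for replicate 1, and the difference missed the threshold with a log2 change of 0.41 ± 0.15 (edgeR adjusted p = 0.0676). It was called by DESeq2 (adjusted p = 0.0413), without CS2164 replicate 1 (0.027), without both distant libraries (0.0447) and in 2 further alternatives. For the abundant ABCC2 the log2 change was -0.08 ± 0.15, for ABCC3 0.24 ± 0.23, for ABCC4 (MRP4), which exports cyclic nucleotides and bile acids to blood, -0.14 ± 0.18, for ABCC6 0.16 ± 0.18 and for ABCG2 -0.76 ± 0.57, none past the threshold. ABCB4 (0.28 ± 0.17) and ABCB11 (0.16 ± 0.35) did not pass either.

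Among the SLC genes, SLC22A23, SLCO2A1 and SLCO2B1 rose with CS2164. SLC22A23, an orphan of the organic ion family, had 46.4, 35.7 and 40.9 CPM in CS2164 and 27.7, 16.4 and 27.8 CPM in Control libraries, with no overlap (log2 change 0.77 ± 0.18, edgeR adjusted p = 0.0108). The call was lost with the compared groups alone (0.0673) and with the replicate block and GC and length correction together (0.0589), within 0.00094 to 0.0673 over the alternatives. PSMG4 lies opposite 15.6% of its exon bases, and an unstranded library cannot separate their reads there. SLCO2A1, the prostaglandin carrier, had 168, 101 and 106 CPM in CS2164 and 88.9, 69.2 and 63.1 CPM in Control libraries, with CS2164 replicate 1 far above the rest (log2 change 0.76 ± 0.23, edgeR adjusted p = 0.0306). The adjusted p was 0.166 without CS2164 replicate 1, 0.134 without Control replicate 2, 0.095 without Control replicate 3 and 0.47 without both distant libraries, within 0.0101 to 0.47 over the alternatives. SLCO2B1 (OATP2B1), a carrier of steroid sulphates and statins, had 107, 102 and 127 CPM in CS2164 and 85.2, 44.5 and 80.6 CPM in Control libraries. Control replicate 2 lay well under its mates, and the log2 change of 0.68 ± 0.21 (edgeR adjusted p = 0.0329) became 0.44 without it (adjusted p = 0.154). Leaving out CS2164 replicate 1 or 3 gave adjusted p of 0.0682 and 0.0874, and leaving out both distant libraries 0.153, within 0.0135 to 0.255 over the alternatives. SLC22A9 had 232, 247 and 303 CPM in CS2164 and 209, 186 and 218 CPM in Control libraries, without overlap. Its log2 change of 0.35 ± 0.14 missed the threshold (edgeR adjusted p = 0.0826) and passed without CS2164 replicate 1 (0.0479), by DESeq2 (0.0458) and with a GC and length correction. The low-level hepatocyte uptake carriers did not pass, with log2 changes of -0.54 ± 0.33 for SLCO1B1, -0.94 ± 0.60 for SLCO1B3 and -0.30 ± 0.75 for SLC10A1. The SLC22A5 (OCTN2) carnitine carrier stood at 0.04 ± 0.17 and SLC22A3 at 0.12 ± 0.16.

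**Figure D2:**
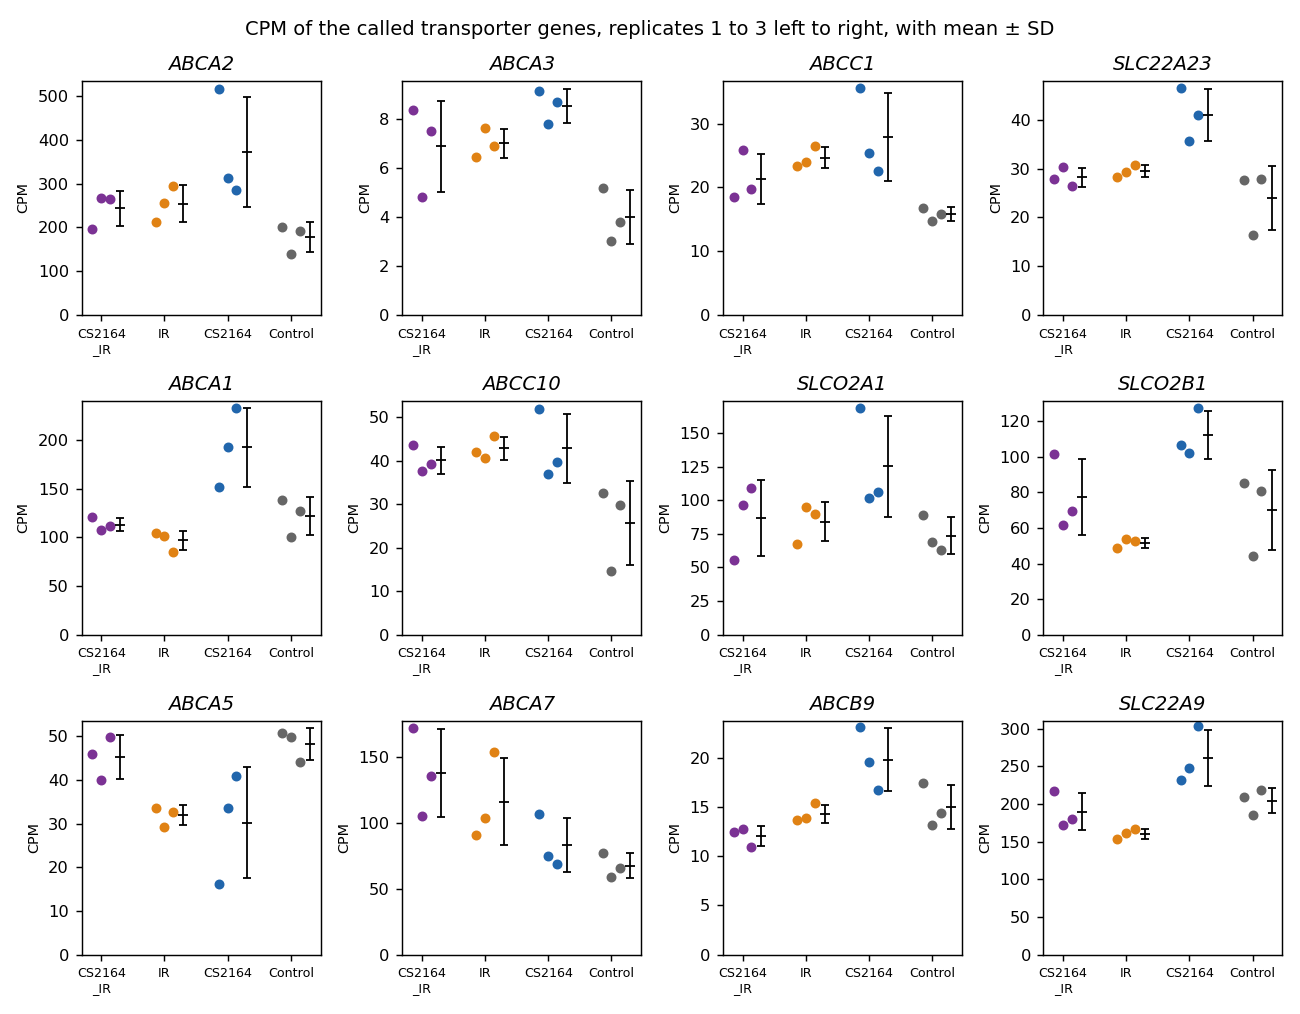
CPM per library for the 12 transporters that passed the test in at least 1 comparison, with replicates 1 to 3 of CS2164_IR, IR, CS2164 and Control from left to right and a bar for the mean ± SD of each group. ABCA2 reaches 515 CPM in CS2164 replicate 1, and ABCA1 lies between 152 and 233 CPM in the CS2164 group, above all 9 other libraries.

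The changes with CS2164 went with the base composition of the transcripts, and so did those of IR and CS2164_IR against Control. Across the 61 tested transporters the Spearman correlation between the log2 change and transcript GC content was 0.635, and across all tested genes it was 0.444. Against Control the same correlations were 0.5 and 0.439 with IR, and 0.495 and 0.483 with CS2164_IR. For CS2164_IR they were -0.22 and 0.085 against IR, and -0.204 and -0.101 against CS2164. Genes share libraries and are not independent, so these are descriptions. After a correction of each library for GC content and length, 7 transporters were higher and 2 lower, where 8.64% and 8.96% of all tested genes were, among them 6 of the 9 called without it. ABCA2 then had a log2 change of 0.48, ABCA3 0.68, ABCA1 0.53, ABCC1 0.43 and SLC22A23 0.37, and ABCA5 -0.39, each past the threshold. ABCB1 (0.51), SLC22A9 (0.62) and the mitochondrial ABCB8 (-0.34) passed with the correction and not in the reported fit, whereas ABCC10, SLCO2A1 and SLCO2B1 no longer did (adjusted p = 0.133, 0.116 and 0.255). The sign changed for 18 of the 61, none of them called, including ABCA7 (-0.235), ABCC3 (-0.17), ABCC6 (-0.23), SLCO1B1 (0.06) and SLC10A1 (0.04). The median log2 change over the 61 transporters was 0.09 before and -0.04 after the correction, beside -0.01 for all tested genes both times, and without Control replicate 2 it was -0.002.

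**Figure D3:**
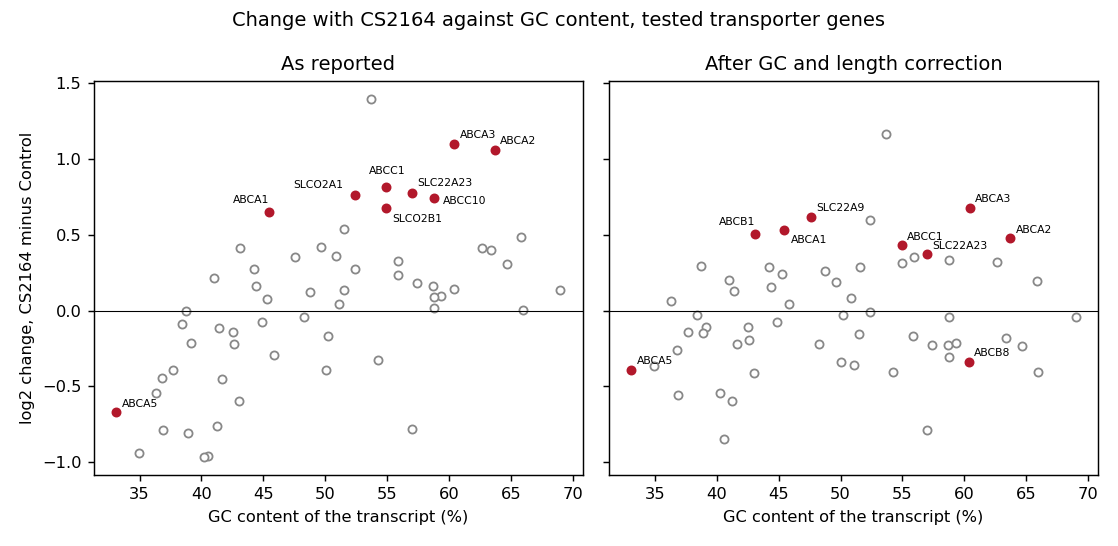
Log2 change with CS2164 relative to Control against the GC content of the transcript (%) for the 61 tested transporters, as reported on the left and after correction for GC content and length on the right. Filled red points have an adjusted p under 0.05. On the left the points climb with GC content (Spearman 0.635), and on the right ABCC10, SLCO2A1 and SLCO2B1 are no longer filled.

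Radiation alone was compared with Control next. No transporter passed the test by edgeR, where 0.436% of all tested genes did. At an unadjusted p under 0.05 there were 24 of 61, against 15.7% of all genes. DESeq2 called 3, where it called 2.57% of all tested genes. All 3 IR libraries were above the Control libraries for 11 transporters and below them for 16, against 13% and 13.3% of all tested genes, 26.3% in either direction. Of the 27 tested SLC genes 17 had a log2 change below 0, with a median of -0.35, while 17 of the 34 ABC genes were below 0, with a median of -0.01, beside a median of -0.01 over all tested genes. The summed share of counts of the 11 hepatocyte markers was 4.58% to 5.12% in IR and 6.46% to 7.37% in Control libraries, and that of 5 cholangiocyte markers 0.0309% to 0.0376% in IR and 0.0252% to 0.0301% in Control libraries. Fibroblast and pericyte markers stood at 0.00573% to 0.00894% in IR and 0.00373% to 0.00437% in Control libraries, and skin, muscle and fat markers at 0.000328% to 0.000443% in IR and 0.000641% to 0.00107% in Control libraries. COL1A2, the highest fibroblast gene, had 743, 597 and 901 counts in IR and 293, 424 and 279 in Control libraries. Pericyte RGS5 went the other way, with 42, 47 and 49 counts in IR and 63, 56 and 59 in Control libraries. The skin, muscle and fat sum was mostly PLIN1. PLIN1 had 47, 49 and 46 counts in IR and 98, 106 and 171 in Control libraries. ACTA1 of the same list had 2, 2 and 14 counts in IR and 0, 1 and 0 in Control libraries. Macrophage markers, mostly LYZ, overlapped, at 0.00450% to 0.00845% in IR and 0.00319% to 0.00452% in Control libraries. The part of these markers in the differences was not tested. In bulk tumours, fewer cells of a type and less RNA per cell cannot be told apart. Fibroblasts, vessels and other host cells were from mice, so these reads on human genes are not a count of such cells.

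SLC22A7 had the lowest p among the transporters. OAT2, its protein, carries nucleobases, cyclic GMP and organic anion drugs, and its expression is typical of hepatocytes and the kidney. The gene lies at chr6:43295694-43305538 on the plus strand of GRCh38, and its RefSeq promoter window (GRCh38.p14, chr6:43298010-43298309, plus strand, 61.3% G and C) is shown because its change with IR was the largest among the 61. The window lies inside the gene span given here, downstream of that span's first base, so RefSeq's start differs from it. CRIP3 lies opposite 4.2% of the gene's exon bases. Capitals mark a nuclear receptor half-site, AGGTCA read on the opposite strand, that begins at -144 relative to RefSeq's start.
SLC22A7 promoter: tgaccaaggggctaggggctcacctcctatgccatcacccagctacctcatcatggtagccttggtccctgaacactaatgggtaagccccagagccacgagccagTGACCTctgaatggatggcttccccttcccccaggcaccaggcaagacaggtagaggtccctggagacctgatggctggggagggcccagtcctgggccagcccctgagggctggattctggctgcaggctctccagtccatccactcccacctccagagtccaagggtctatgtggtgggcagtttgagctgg
AGGTCA occurred in 6 of the 57 transporter promoters and in 13.9% of all promoter windows. The other 3 motifs and the CCAAT box, which 15 of the 57 and 35.7% of all windows hold, were not found in this window. SLC22A7 had 24.1, 4.70 and 8.85 CPM in CS2164_IR libraries, 2.47, 6.03 and 4.97 CPM in IR libraries, 18.5, 23.1 and 21.6 CPM in CS2164 libraries and 22.0, 15.8 and 21.7 CPM in Control libraries. The 3 IR libraries were all far below the Control libraries, while CS2164_IR replicate 1 was at the Control level and its mates were not. The raw counts behind these values were 39, 100 and 69 in IR and 310, 251 and 349 in Control libraries. The mean was 4.49 ± 1.82 CPM in IR and 19.8 ± 3.51 CPM in Control (SD, n = 3 each). In the fit of all 12 libraries the log2 change with IR was -2.14 ± 0.47, with an unadjusted p of 0.00048 and an adjusted p of 0.0686 by edgeR, so it did not pass. It did pass in a fit of these groups alone (adjusted p = 0.00644), by DESeq2 (0.0114), and in fits without CS2164_IR replicate 1 (0.0043) or replicate 2 (0.0121), libraries that lie outside the compared groups but enter the shared estimate of spread.

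Other carriers moved with IR without passing. SLCO4C1, an organic anion carrier known from the kidney, had 11.9, 13.4 and 13.0 CPM in IR and 20.2, 18.8 and 30.6 CPM in Control libraries. The groups did not overlap, with a log2 change of -0.87 ± 0.26 (edgeR adjusted p = 0.144), and without CS2164 replicate 1 in the fit the adjusted p was 0.0238. SLC22A3 had 43.7, 42.2 and 51.8 CPM in IR and 64.2, 62.5 and 66.7 CPM in Control libraries, again without overlap (log2 change -0.49 ± 0.16). ABCG8 had 13.2, 15.8 and 16.5 CPM in IR and 25.0, 17.2 and 27.4 CPM in Control libraries (-0.61 ± 0.21), and its partner ABCG5 -0.29 ± 0.23. All IR libraries of ABCG8 were under the Control libraries. On the higher side stood ABCA7 (log2 change 0.78), ABCC1 (0.64 ± 0.19, adjusted p = 0.122) and ABCC10 (0.74). ABCC1 had 23.4, 24.0 and 26.6 CPM in IR against 16.8, 14.7 and 15.9 CPM in Control libraries, without overlap, and passed by DESeq2 (adjusted p = 0.0474) and without CS2164 replicate 1 (0.0292). ABCB1 (0.05 ± 0.15), ABCC2 (0.03 ± 0.15), SLC22A5 (0.02 ± 0.17) and SLCO1B3 (0.01 ± 0.55) were close to 0, and SLC10A1 had 0.144 to 0.422 CPM in IR and 0.0628 to 0.870 CPM in Control libraries (-1.12 ± 0.81). Without CS2164 replicate 1, 5 transporters passed, where 3.35% of all tested genes did, and without both distant libraries 9 did, where 3.26% did. Those 9 included ABCC1 (adjusted p = 0.0465), SLCO4C1 (0.00678), ABCG8 (0.0209), ABCA1 (0.0301) and SLCO2B1 (0.0486).

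**Figure D4:**
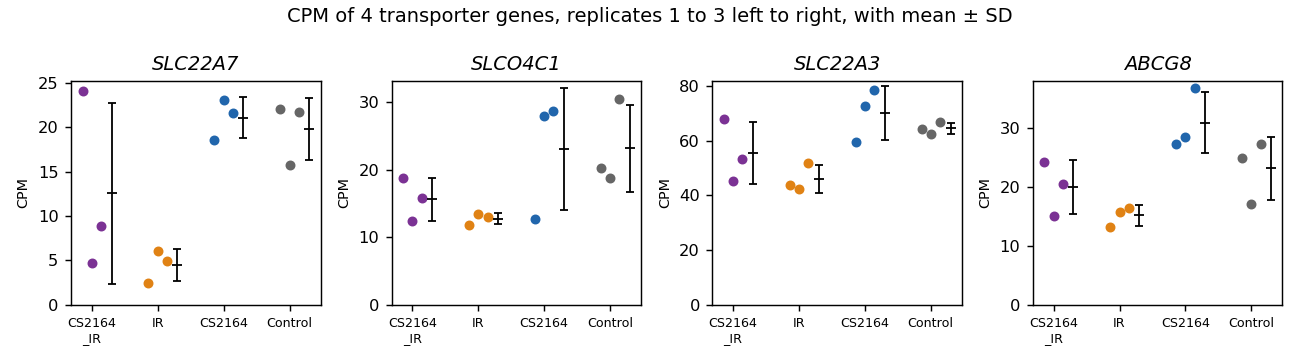
CPM per library of SLC22A7, SLCO4C1, SLC22A3 and ABCG8, with replicates 1 to 3 of CS2164_IR, IR, CS2164 and Control from left to right and a bar for the mean ± SD of each group. In each panel the 3 IR libraries lie below the 3 Control libraries, and for SLC22A7 replicate 1 of CS2164_IR stands at 24.1 CPM, above its mates at 4.70 and 8.85 CPM.

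The combined treatment was set against Control, IR and CS2164 in turn. These comparisons share libraries with those above and with each other. Against Control no transporter passed by edgeR, where 0.192% of all tested genes did, 0.148% higher and 0.0444% lower. In all, 14 had an unadjusted p under 0.05 against 16.4% of all genes. DESeq2 called 1, where it called 2.35% of all tested genes. The 3 CS2164_IR libraries were above Control for 8 transporters and below for 10, where 13% and 13.3% of all genes were, 26.4% in either direction. ABCA7 came closest. It had 172, 105 and 136 CPM in CS2164_IR and 77.6, 59.3 and 66.1 CPM in Control libraries, so the groups were well apart, and the log2 change of 1.03 ± 0.22 had an edgeR adjusted p of 0.0533. With the GC and length correction it passed (log2 change 0.67, adjusted p = 0.0189). Beside these values, fibroblast and pericyte markers summed to 0.00614% to 0.00720% of counts in CS2164_IR and 0.00373% to 0.00437% in Control libraries, and cholangiocyte markers to 0.0376% to 0.0470% in CS2164_IR and 0.0252% to 0.0301% in Control libraries. COL1A2 had 530, 826 and 731 counts in CS2164_IR and 293, 424 and 279 in Control libraries. Pericyte RGS5 had 26, 52 and 63 counts in CS2164_IR and 63, 56 and 59 in Control libraries. The part of these lists was not tested. Other separated transporters were ABCC1 (0.44), ABCC10 (0.65) and the orphan SLC10A3 (0.54) on the higher side, and ABCC4 (-0.41) on the lower side. Leaving out CS2164 replicate 1, IR replicate 3 or CS2164_IR replicate 2 gave 1 call, where 3.18%, 0.183% and 0.227% of all tested genes were called. Without both distant libraries ABCC4 (adjusted p = 0.0458) and SLCO4C1 (0.0384) passed, where 3.05% of all tested genes did. ABCB1, with 66.4, 51.3 and 52.9 CPM in CS2164_IR and 52.7, 44.1 and 49.0 CPM in Control libraries, overlapped between the groups (0.23 ± 0.15).

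Adding CS2164 to radiation changed no transporter past the threshold, and no gene at all (0% of those tested). In all, 5 transporters had an unadjusted p under 0.05, against 2.45% of all genes, and DESeq2 also called none. The 3 CS2164_IR libraries lay above the IR libraries for 8 transporters and below them for 2, against 4.62% and 4.89% of all tested genes, 9.5% in either direction. The log2 change was above 0 for 45 of the 61 transporters, with a median of 0.14, beside 6759 of 13521 genes and a median of 0.00. All 7 organic anion transporting polypeptides, all 6 organic anion SLC22A and all 4 organic cation and carnitine genes tested were above 0. This lean rested largely on CS2164_IR replicate 1: without it, 32 of 61 were above 0 and the median was 0.03. Hepatocyte markers summed to 5.16% to 7.37% of counts in CS2164_IR and 4.58% to 5.12% in IR libraries. Cholangiocyte markers met at 0.0376%, with 0.0376% to 0.0470% in CS2164_IR and 0.0309% to 0.0376% in IR libraries. The other marker lists overlapped, and the part of markers in these differences was not tested. SLCO2B1 had 102, 61.6 and 69.4 CPM in CS2164_IR and 48.6, 53.8 and 52.5 CPM in IR libraries, with no overlap and replicate 1 of CS2164_IR far above its mates (log2 change 0.59 ± 0.21, edgeR adjusted p = 1). ABCB4 had 26.0, 19.9 and 22.2 CPM in CS2164_IR and 14.3, 17.8 and 15.3 CPM in IR libraries, also without overlap (0.51 ± 0.17). SLC22A7, whose values stand above, differed by 1.46 ± 0.47 with overlapping groups.

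Adding radiation to CS2164 lowered ABCA1, ABCB9 and SLC22A9 and raised ABCA7, 4 of 61 transporters, where 9.69% of all tested genes passed, 3.78% higher and 5.91% lower. An unadjusted p under 0.05 was found for 18, against 27.9% of all genes. All CS2164_IR libraries were above the CS2164 libraries for 4 transporters and below them for 10, against 16.7% and 15.5% of all tested genes, 32.3% in either direction. ABCA1 had 121, 107 and 112 CPM in CS2164_IR and 152, 193 and 233 CPM in CS2164 libraries. The groups were fully apart, and the log2 change was -0.77 ± 0.16 (edgeR adjusted p = 0.0101). The call was lost without CS2164_IR replicate 3 (adjusted p = 0.0502), within 2.26e-05 to 0.0502 over the alternatives. ABCB9 (TAPL), which carries peptides into lysosomes, had 12.5, 12.8 and 10.9 CPM in CS2164_IR and 23.2, 19.6 and 16.8 CPM in CS2164 libraries, without overlap (-0.72 ± 0.18, edgeR adjusted p = 0.0187). It was not called without CS2164_IR replicate 1 (0.0599) or replicate 3 (0.094), within 0.0021 to 0.094, and genes on the opposite strand cover 12.0% (ARL6IP4), 12.5% (OGFOD2) and 20.7% (AC026362.1) of its exon bases. SLC22A9 had 218, 172 and 179 CPM in CS2164_IR and 232, 247 and 303 CPM in CS2164 libraries, a smaller and still complete separation (-0.46 ± 0.14, edgeR adjusted p = 0.0457). Leaving out any library but Control replicate 2 or CS2164 replicate 1 ended this call, with adjusted p between 0.0564 and 0.166. ABCA7 had 172, 105 and 136 CPM in CS2164_IR and 107, 75.1 and 68.8 CPM in CS2164 libraries. Replicate 2 of CS2164_IR lay just below replicate 1 of CS2164, and the log2 change was 0.72 ± 0.21 (edgeR adjusted p = 0.0411). That call was lost without Control replicate 3 (0.052), CS2164 replicate 2 (0.114) or 3 (0.125), IR replicate 2 (0.0574), or CS2164_IR replicate 1 (0.187) or 3 (0.111), within 0.000432 to 0.187 over the alternatives. Cholangiocyte markers summed to 0.0376% to 0.0470% of counts in CS2164_IR and 0.0257% to 0.0290% in CS2164 libraries, macrophage markers to 0.00415% to 0.00791% in CS2164_IR and 0.00314% to 0.00414% in CS2164 libraries, and endothelial markers to 0.000586% to 0.000791% in CS2164_IR and 0.000862% to 0.000973% in CS2164 libraries. The macrophage sum was mostly LYZ and the endothelial sum mostly PECAM1, and the part of these markers in the changes was not tested. Near the threshold were ABCG8 (-0.64), ABCB10 (-0.43), SLC22A23 (-0.54) and ABCA2 (-0.61), each with all CS2164_IR libraries below all CS2164 libraries. ABCA2 had 196, 268 and 266 CPM in CS2164_IR and 515, 314 and 285 CPM in CS2164 libraries. The number of transporters that passed was 14 with the GC and length correction (19.2% of all genes), 12 without both distant libraries (23.9%), 10 without Control replicate 2 (15%) and 7 without CS2164 replicate 1 (12.4%). It was 2 without Control replicate 3 (8.54%), CS2164 replicate 2 (6.13%), IR replicate 2 (7.12%) or CS2164_IR replicate 1 (2.59%), and 0 without CS2164_IR replicate 3 (2.27%). Without both distant libraries those that passed included SLCO4C1 (adjusted p = 0.00213), ABCG8 (0.00614), ABCC4 (0.0216), SLC22A3 (0.0254) and SLCO2B1 (0.0268).

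**Figure D5:**
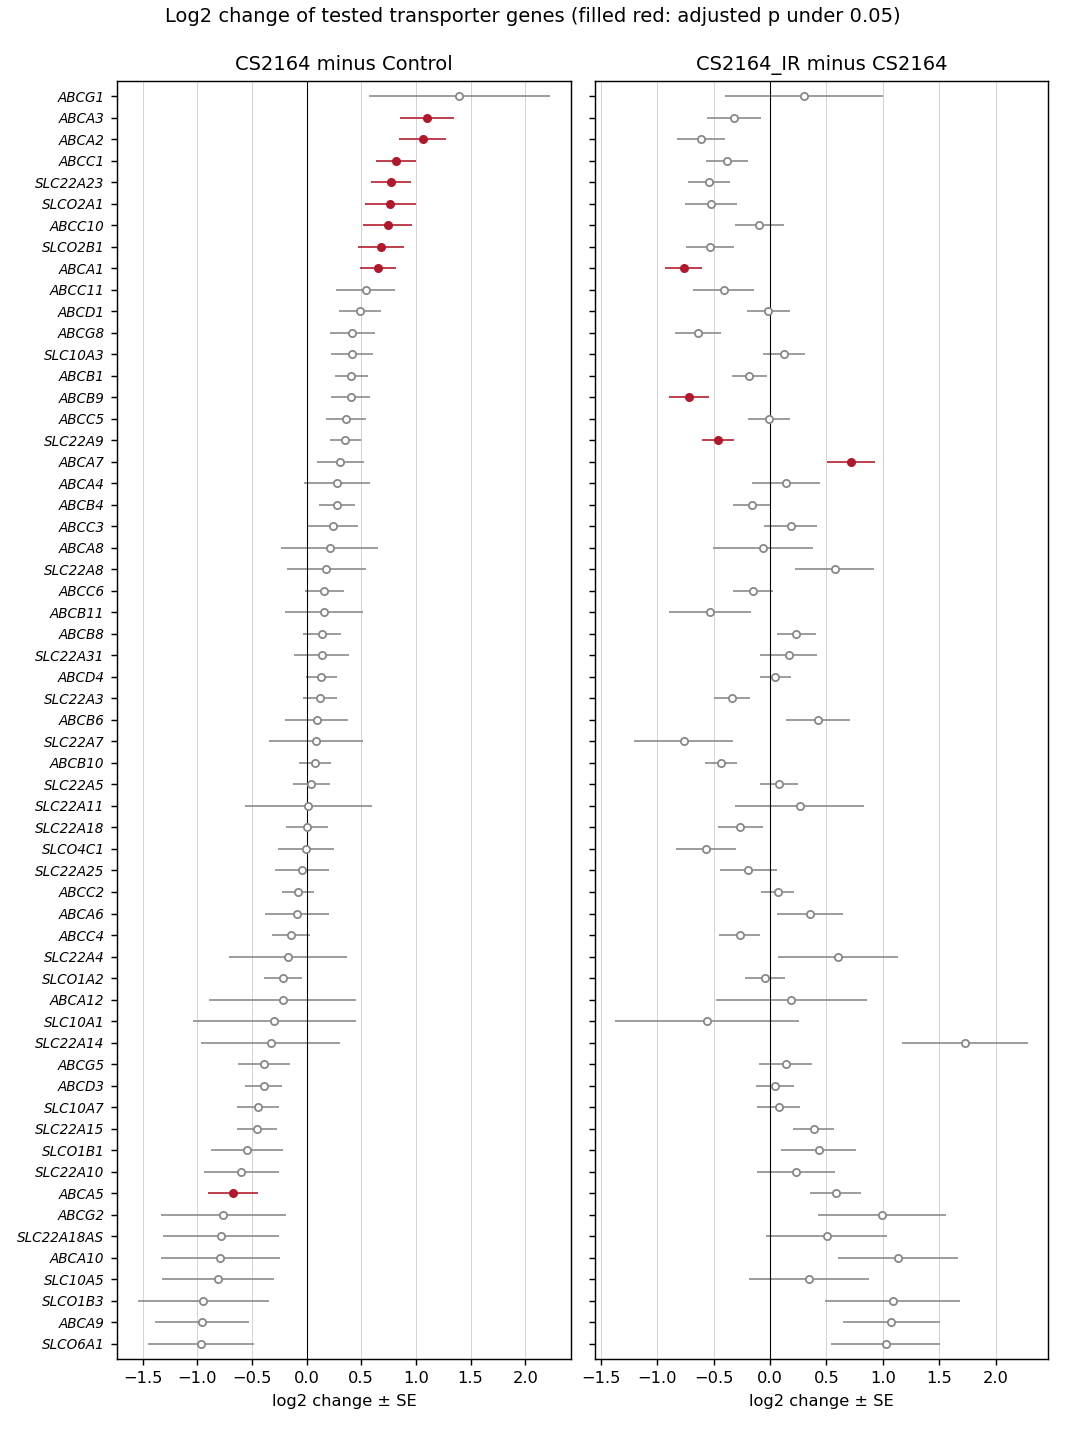
Log2 change ± SE of 59 of the 61 tested transporters, CS2164 minus Control on the left and CS2164_IR minus CS2164 on the right, in the order of the left panel. Filled red points have an adjusted p under 0.05, which 9 genes reach on the left and 4 on the right. The panels share the CS2164 libraries.

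Whether the inhibitor acted differently with radiation was tested as an interaction. No transporter and no gene passed by edgeR (0%), and 11 transporters had an unadjusted p under 0.05, against 20.2% of all genes. DESeq2 called 5. The lowest p values belonged to ABCC1 (log2 interaction -1.02 ± 0.26), ABCA2 (-1.12 ± 0.30) and ABCA5 (1.18 ± 0.32), each with an edgeR adjusted p of 0.101. A negative value means that the difference CS2164_IR minus IR was smaller than CS2164 minus Control. ABCC1 had 18.5, 25.8 and 19.8 CPM in CS2164_IR and 23.4, 24.0 and 26.6 CPM in IR libraries, which overlap, beside the separated CS2164 and Control libraries above. The Spearman correlation of the log2 interaction with transcript GC content was -0.571 across the 61 tested transporters and -0.38 across all tested genes. With the GC and length correction ABCA5 passed, with a log2 interaction of 0.92 and an adjusted p of 0.0317, where 0.695% of all tested genes passed.

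Genes that regulate or work beside the transporters were described from 3 lists. With CS2164, 5 of 15 tested nuclear receptors and transcription factors rose and 1 fell, where 19.7% of all genes changed. PPARA, the fatty acid sensing receptor, had 82.4, 73.6 and 86.2 CPM in CS2164 and 45.6, 30.5 and 50.7 CPM in Control libraries, with the groups far apart (log2 change 0.94 ± 0.17, edgeR adjusted p = 0.00455), and was called in all 22 alternatives. SREBF2, the activator of cholesterol synthesis genes (0.72 ± 0.15), RXRA, the partner of many nuclear receptors (0.64 ± 0.14), and the hepatocyte factor HNF4A (0.59 ± 0.16) were among the others that rose. With the GC and length correction RXRA and HNF4A did not pass, and HNF4A did not pass either without Control replicate 2 or without CS2164 replicate 1. NR1H4 (FXR), the bile acid receptor, had 29.8, 51.0 and 44.5 CPM in CS2164 and 49.5, 73.8 and 64.6 CPM in Control libraries, which overlap at 1 library (-0.59 ± 0.20, edgeR adjusted p = 0.047). This call held in 8 of 22 alternatives, whose adjusted p ran from 0.0257 to 0.434. Of single libraries, only Control replicate 1, CS2164 replicate 2 or CS2164_IR replicate 2 could be left out without losing it. NR1H4 was also lower with IR, at 31.3, 37.3 and 29.3 CPM in IR against those Control values, without overlap (-0.94 ± 0.20, edgeR adjusted p = 0.046), a call that held in 11 of 22 alternatives with adjusted p from 0.00229 to 0.238. It held with CS2164 replicate 1 or 3 or CS2164_IR replicate 1 left out, and with no other single library left out. Adding radiation to CS2164 lowered 4 of the 15, PPARA (-1.06), RXRA (-0.81), HNF4A (-0.81) and SREBF2 (-0.50), against 5.91% of all genes. PPARA had 37.3, 38.5 and 40.7 CPM in CS2164_IR libraries, under all 3 CS2164 libraries, and all but SREBF2 held in all 22 alternatives. SREBF2 held in 10, with adjusted p from 0.00981 to 0.132, and of single libraries only with Control replicate 1 or 2 or CS2164 replicate 2 left out.

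Of 25 tested partners of bile formation and drug handling, 3 rose with CS2164 and none fell, where 10.4% and 9.32% of all tested genes did. MYO5B, the motor that carries canalicular transporters to the membrane, had 62.2, 61.1 and 76.0 CPM in CS2164 and 36.6, 19.2 and 40.2 CPM in Control libraries (log2 change 1.05 ± 0.20, edgeR adjusted p = 0.00495) and no overlap, and was called in all 22 alternatives. KLB, the co-receptor for FGF19 (0.49 ± 0.13), and ATP8B1, a canalicular phospholipid flippase (0.51 ± 0.18), were the others. KLB was not called without Control replicate 2, within 0.00178 to 0.1. ATP8B1 held in 7 of 22 alternatives, with adjusted p from 0.015 to 0.155, and of single libraries only with Control replicate 1 left out. With CS2164_IR against CS2164, KLB (-0.70 ± 0.13) and MYO5B (-1.04 ± 0.20) fell, 2 of 25 where 5.91% of all tested genes fell, and both held in all 22 alternatives. Of 13 tested genes of bile acid synthesis and conjugation, SCP2, a peroxisomal sterol carrier and thiolase, fell with CS2164 (-0.57 ± 0.16, edgeR adjusted p = 0.0236), and none rose, 1 of 13 where 9.32% of all tested genes fell. It was not called with the GC and length correction, nor without Control replicate 2 or CS2164 replicate 1, within 0.00945 to 0.186. With IR none of the 13 passed, where 0.436% of all tested genes did, while 12 had a log2 change below 0, with a median of -0.48 beside -0.01 over all tested genes. CYP7A1, the rate-limiting enzyme of bile acid synthesis, had at most 0.318 CPM in any library.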

How the data were processed

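Poly-A RNA in 12 libraries from tumours, 4 groups of 3, was measured with a protocol that does not mark strand. Per the submitters' processing notes, reads were handled with HISAT2 2.1.0 and HTSeq 0.9.1 on GRCh38. The annotation release, strand setting and treatment of mouse reads are not given in the sources used. The authors deposited raw counts per gene, on which all tests ran. The FPKM deposited by the authors are the count over length over the table's total (checked, largest relative spread 5.78e-14) and were used for levels and lengths. Symbols matched 19941 of 19988 genes. Genes passing filterByExpr of edgeR 4.0.16 (R 4.3.3), 13521, were scaled by TMM and fitted in 1 robust quasi-likelihood model of all 12 libraries with a coefficient per group. CPM are edgeR's after TMM. SE is the log2 change divided by the square root of F. p-values were adjusted by Benjamini-Hochberg over all tested genes within each of 6 comparisons. Floors cover counting error only, whereas SE also includes the spread between libraries. GC content came from the longest GENCODE protein-coding transcript, and the correction used splines with 4 degrees of freedom. Promoters came from RefSeq. The 22 alternatives were other scalings (RLE, upper quartile), filters (none, mean of 1 CPM), a replicate block, the GC and length correction, these 2 together, DESeq2 1.42.0, fits to only the groups compared, single libraries left out, and both distant libraries left out. A 2-fold minimum was applied only to the counts of called genes and is not among the 22. Same-numbered libraries did not deviate together across the 4 groups, with 3 of 18 correlations over 0.1 and the lowest at -0.372, so numbers were not taken as pairs. Between Control and CS2164 these correlations were all weakly positive, at 0.0996, 0.108 and 0.149. Named were up to 8 transporters called in each direction per comparison, 24 looked up whatever their values, and up to 4 called genes of each related list. Others near a threshold were chosen after their values were seen. Some genes of the rule and the lists are counted but not reported here by name. Members, lists and the 2 distant libraries were chosen with earlier results of these data known.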

Additional observations from a re-analysis of the deposited data

Results flagged for a closer look

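For 3 transporters the groups compared were fully apart one way in one setting and the opposite way in the other. Only transporters were searched for this pattern, so its share of all tested genes is not known. In single comparisons, 26.3% of all tested genes were fully apart for IR against Control and 32.3% for CS2164_IR against CS2164. The share was 36.4% for CS2164 against Control and 9.5% for CS2164_IR against IR. ABCA2 had all IR libraries (211, 256 and 295 CPM) above all Control libraries (202, 139 and 193 CPM), but all CS2164_IR libraries (196, 268 and 266 CPM) below all CS2164 libraries (515, 314 and 285 CPM). The effects of radiation with and without CS2164 differed by -1.12 on the log2 scale (edgeR interaction, adjusted p = 0.101). SLC22A23 did likewise, with IR at 28.3, 29.4 and 30.7 CPM against Control at 27.7, 16.4 and 27.8 CPM, and CS2164_IR at 27.9, 30.3 and 26.4 CPM against CS2164 at 46.4, 35.7 and 40.9 CPM, a difference of -0.84 (adjusted p = 0.114). ABCA5 had CS2164_IR at 46.0, 40.0 and 49.8 CPM above IR at 33.7, 29.4 and 32.8 CPM, but CS2164 at 16.1, 33.7 and 41.0 CPM below Control at 50.8, 49.9 and 44.2 CPM, a difference of 1.18 (adjusted p = 0.101). Some gaps were narrow, as between 28.3 CPM in IR and 27.8 CPM in Control libraries for SLC22A23. None of these interactions passed the threshold as reported.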

How the results depend on the processing

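No transporter called in a comparison reversed its direction there under any alternative, while with the GC and length correction 18, 7, 8, 3, 6 and 8 of the 61 tested changed sign in the 6 comparisons, none of them called. In each setting below, the share of all tested genes called stands in brackets after the count. CS2164_IR against IR gave 0 calls of transporters throughout. With CS2164 against Control (9 transporters called, 19.7%), the count was 5 with the replicate block and the GC and length correction together (15.9%), 2 with these groups alone (2.18%), 4 without the 2 distant libraries (7.05%), 2 at a 2-fold minimum (2.37%), and 4 to 9 with single libraries left out (4.53% to 19.4%), the lowest without Control replicate 2. DESeq2 gave 12 (24.2%). For IR against Control (0, 0.436%), it was 2 with the GC and length correction (2.71%) and 2 with the block added (2.04%), 3 by DESeq2 (2.57%), 1 with these groups alone (1.05%), 9 without the 2 distant libraries (3.26%) and 0 to 5 with single libraries left out (0% to 3.35%). For CS2164_IR against Control (0, 0.192%), it was 1 with no filter (0.559%), 1 with the block (0.288%), 1 by DESeq2 (2.35%), 3 with the correction (2.25%) and 3 with the block added (2.37%), 2 without the 2 distant libraries (3.05%) and 0 to 1 with single libraries left out (0% to 3.18%). For CS2164_IR against CS2164 (4, 9.69%), it was 6 with no filter (7.97%), 11 with block and correction (18%), 14 with the correction (19.2%), 8 by DESeq2 (14.1%), 2 with these groups alone (6.32%), 12 without the 2 distant libraries (23.9%), 0 at a 2-fold minimum (1.42%), and 0 to 10 with single libraries left out (2.27% to 15%). For the interaction (0, 0%), it was 1 with the correction (0.695%), 5 by DESeq2 (4.73%), 1 without the 2 distant libraries (1.19%) and 0 with single libraries left out (0% to 0.0073%). The replicate block alone gave 9, 0, 1, 0, 3 and 0 transporters in the 6 comparisons (18.1%, 0.148%, 0.288%, 0%, 7.83% and 0%). Upper-quartile scaling changed the split over all genes, to 1131 higher and 1543 lower for CS2164 against Control (1409 and 1260 as reported) and to 750 and 614 for CS2164_IR against CS2164 (511 and 799), where transporters split 2 and 2 in place of 1 and 3. Of 286 rechecks of called transporters, 219 kept the call and 67 lost it. The cause of these moves was not tested, except that fewer genes pass a fold minimum by construction. SLC10A1, with at most 14 reads in a library, has SE of 0.75 to 0.89 in the comparisons of 2 groups.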

Other observations

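A few transporters outside the named set stood out by their values, chosen after those were seen. SLC22A14, an orphan organic ion carrier, had 0.637, 0.916 and 0.690 CPM in CS2164_IR, 0.634, 0.904 and 0.504 CPM in IR, 0.196, 0.217 and 0.252 CPM in CS2164 and 0.213, 0.314 and 0.311 CPM in Control libraries, so that every irradiated library was above every library that was not irradiated. Without irradiation its values lie near the floor of 3 counts. No comparison of it passed as reported (adjusted p = 0.0563 for CS2164_IR against CS2164), and that one passed with the GC and length correction (0.0435). ABCD3, the peroxisomal carrier of long-chain acyl-CoA, had 95.1, 95.8 and 93.5 CPM in CS2164_IR, 102, 84.9 and 91.3 CPM in IR, 63.0, 106 and 108 CPM in CS2164 and 112, 134 and 117 CPM in Control libraries. All 9 treated libraries were below all 3 Control libraries, and no comparison passed as reported (log2 changes of -0.35, -0.39 and -0.39). ABCB10, a mitochondrial transporter needed for haem synthesis, had 21.4 to 23.7 CPM in the 6 irradiated libraries and 25.8 to 33.1 CPM in the other 6. It did not pass as reported, and with the GC and length correction it was lower with CS2164_IR than with CS2164 (log2 change -0.53, adjusted p = 0.0036). NR0B2 (SHP), the bile acid induced repressor of CYP7A1, had 74.9, 37.0 and 46.6 CPM in CS2164_IR, 29.95, 33.8 and 51.8 CPM in IR, 42.7, 24.2 and 31.8 CPM in CS2164 and 27.0, 26.6 and 21.8 CPM in Control libraries, with an adjusted p of 0.0748 for CS2164_IR against Control.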
